A study of Mus musculus with 6 samples.

Results

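Collagens, laminins, integrins and fibronectin were examined in anterior presomitic mesoderm (PSM) of mouse embryos at embryonic day 8.75. The PSM is the unsegmented mesoderm beside the neural tube from which somites bud off. The members were all genes in the deposited values whose symbol has the form of a collagen, laminin or integrin chain, together with Fn1. This made 38 of the 10290 genes with exactly 1 symbol per probe set. Genes of these families without a probe set among the deposited values are not covered. They were 20 collagen genes, 5 laminin genes, 10 integrin genes, Fn1, and 2 genes, Itgb1bp1 and Itgb3bp, that are named after integrins they bind but are not integrin chains. A probe set is a group of oligonucleotides read as a single value, and the members had 61 of them.

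A pair of genotypes on a C57BL6/6J background was compared, with 3 pools each and 3 PSMs in each pool, and 1 array per pool. Embryos of the control genotype, R26R AC/AC, and of the mutant genotype, R26R AC/AC;T-Cre, all carried the AC allele at the ROSA26 locus, and mutant embryos alone carried Cre. The promoter of T (Brachyury) drives this Cre, and since it is on in cells of the primitive streak, Cre also acts in mesoderm other than the PSM. The labels do not spell out AC. What is known of the study makes it A-CREB, which blocks DNA binding by CREB and its relatives once Cre has switched it on. No pool carried Cre without AC, so effects of Cre and of AC cannot be told apart. The labels call the pools biological replicates.

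Fibronectin, fibrillar collagens and basement membranes surround the PSM and the somites. Basement membranes are sheets of type IV collagen and of laminin trimers, each made of an alpha, a beta and a gamma chain. Integrins are pairs of an alpha and a beta chain in the cell membrane that hold these proteins and connect them to actin. In the embryo, assembly of fibronectin by integrins around the PSM is known to be needed for somites to form epithelial balls.

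RefSeq start-site windows (GRCm38.p6) of 300 bases, 250 before and 50 after each start, were at hand for 29 of the 38 members, with 32 windows in all. For Col14a1, Col1a1, Col2a1, Col5a2, Col9a3, Fn1, Itga6, Lama1 and Lamc1 none was used. Since the series names the CREB family, the cAMP response element TGACGTCA, which CREB proteins bind, was searched on both strands. It was in 0 of the 32 windows, against 1.79% of all 32851 windows. Its shorter form TGACGT, which the full element contains, was in 1 member window, that of Lama5 (7.51% of all windows), and the shorter still TGACG, contained in both, in 6 (20.8% of all windows), those of Col4a5, Col7a1, Itga9, Itgb1, Lama5 and Lamb2. A match is a run of letters and not a site of binding. The windows of Col4a1 and Col4a2, which lie head to head and are read in opposite directions, overlapped in 78 bases.

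The 250 bases before the start sites are shown for Col9a1, the member with the smallest p below, because RefSeq gives it 2 start sites and its 2 probe sets differed in direction, and for Lama5, because of its TGACGT, in capitals, which begins 49 bases before the start.
Col9a1, first start, chr1:24177360-24177609 (+): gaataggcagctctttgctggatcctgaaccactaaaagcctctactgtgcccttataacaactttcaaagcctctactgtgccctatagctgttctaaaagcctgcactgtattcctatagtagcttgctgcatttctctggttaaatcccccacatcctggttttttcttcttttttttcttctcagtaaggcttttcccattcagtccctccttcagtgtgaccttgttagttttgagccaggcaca
Col9a1, second start, chr1:24194953-24195202 (+): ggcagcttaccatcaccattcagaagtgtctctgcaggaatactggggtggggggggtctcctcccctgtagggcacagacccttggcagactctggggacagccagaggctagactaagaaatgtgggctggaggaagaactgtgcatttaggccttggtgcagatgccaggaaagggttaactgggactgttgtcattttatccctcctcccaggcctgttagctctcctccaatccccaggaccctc
Lama5, chr2:180225860-180226109 (-): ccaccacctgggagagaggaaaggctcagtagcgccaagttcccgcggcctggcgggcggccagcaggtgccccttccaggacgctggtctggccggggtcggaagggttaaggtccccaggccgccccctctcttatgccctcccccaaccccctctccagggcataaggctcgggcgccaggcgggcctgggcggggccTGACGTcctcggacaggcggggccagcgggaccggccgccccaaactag
The Col9a1 starts lie 17593 bases apart on chromosome 1, and which of them each probe set reads was not analysed here.

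The values were the authors' scaled signals, and the arrays had median signals of 491 to 535. Each gene was read by its probe set with the highest mean log2(signal + 1), and 24 of the 38 members lay above the filter on low signal, a geometric mean of 349 over the 6 arrays, and were tested. Of these, Col5a1, Itga3 and Itga8 passed only through the mutant pools, since their control means lay below the filter. The arrays of control 1, mutant 1 and mutant 2 had spike-in control ratios (3' over 5' signal of the dap transcript, a measure of labelling) of 19.6 to 23.8, and the other 3 had 10.2 to 12.2. They are called high-ratio and low-ratio arrays here. Control 1 is the only control among the high-ratio arrays, and mutant 3 the only mutant among the low-ratio arrays. Each difference within a set therefore rests on that array on 1 side. Markers fixed for the PSM were present, with 12 of 16 tested. Among them, Tbx6 passed the filter only through the control pools (mutant mean 328). The 14 listed genes with a probe set summed to 19438 to 23393 in control and 14084 to 18936 in mutant pools. Of the 12, 1 was positive in limma, and the median log2 difference was −0.46. Ripply2 was called lower (−1.56, adjusted p = 0.000622) and Pax3 higher (0.94, adjusted p = 0.0145), where 1.70% of all genes were called. Unadjusted p lay under 0.05 for 8 of the 12, against 15.0% of all genes. Fewer cells of a type and less RNA per cell cannot be told apart in such pools.

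Over both genotypes, mean signals lay above the filter for 10 of 20 collagens, 4 of 5 laminin chains and 7 of 10 integrin chains. The control mean alone lay above it for 9 of these collagens, 4 laminin chains and 5 integrin chains. Probe sets differ in how well they bind, so a signal is compared only between pools and not between genes. Fn1, the cell-adhesive matrix protein that integrins assemble into fibrils, had a control signal of 11784 ± 1381 (SD, n = 3 pools, as in all that follow). Among basement membrane genes, the control signal was 3235 ± 234 for Col4a1 and 902 ± 149 for Col4a2, which together form the common type IV trimer, and 1876 ± 245 for Col4a5. The laminin chains had 656 ± 56.1 for Lama1, 370 ± 104 for Lama5, 3586 ± 377 for Lamb1 and 935 ± 213 for Lamc1. With Lamb1 and Lamc1, these alpha chains make laminin-111 and laminin-511, as the textbook names them by their chains.

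Of the receptor genes, Itgav, whose product pairs with several beta chains and binds the RGD tripeptide of fibronectin and vitronectin, had a control signal of 2765 ± 316. Its partner gene Itgb5 had 2396 ± 138, Itgb8 1544 ± 259 and Itgb1, the most widely shared beta chain, 1193 ± 76.6. Laminin-binding alpha chains read 1936 ± 134 for Itga6 and 313 ± 103 for Itga3, and Itga8, an RGD-binding chain, read 329 ± 73.3. Itga5, the alpha chain of the main fibronectin receptor, was not analysed here.

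**Figure D1:**
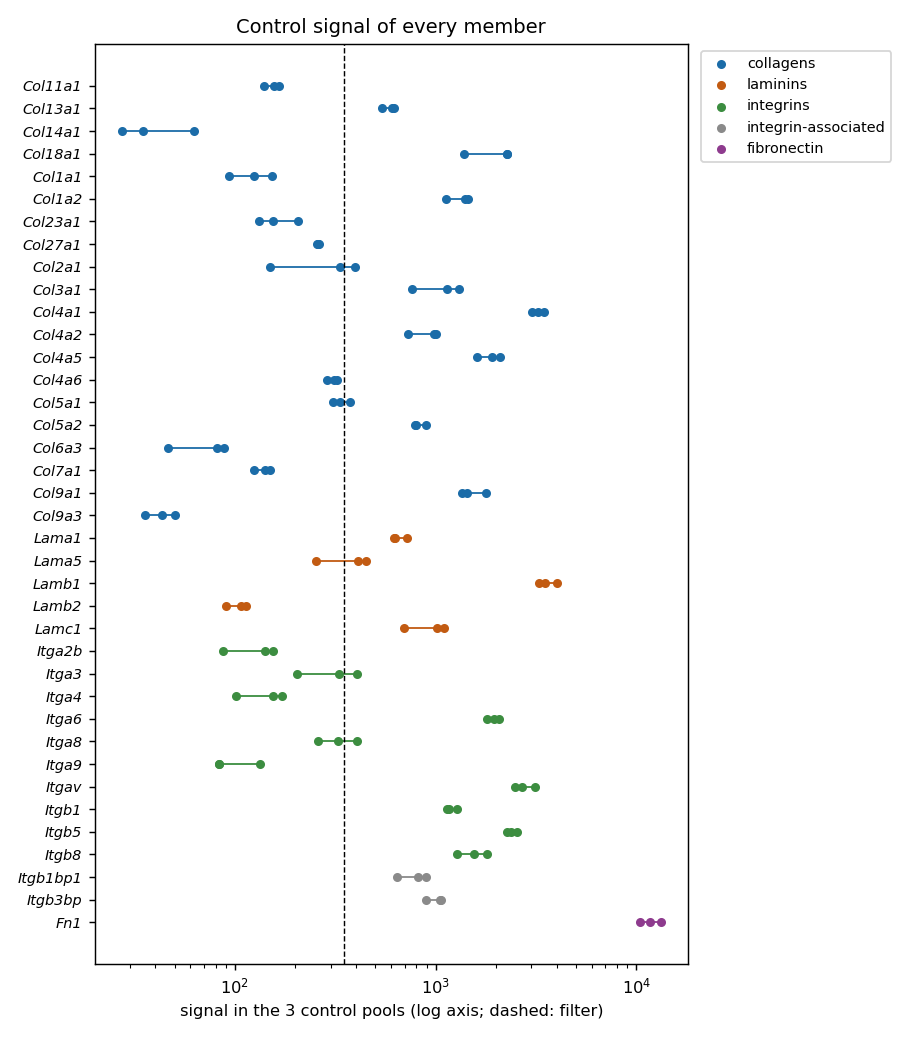
Signal of each of the 38 members in the 3 control pools (points, joined by a line over their range; log axis), grouped by family and in alphabetical order, with the filter at 349 as a dashed line. In all, 10 collagens, 4 laminin chains and 7 integrin chains were tested; signals of different genes come from different probe sets and are not comparable.

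The 14 members below the filter were Col1a1, Col2a1, Col4a6, Col6a3, Col7a1, Col9a3, Col11a1, Col14a1, Col23a1, Col27a1, Lamb2, Itga2b, Itga4 and Itga9. Col1a1, the main chain of type I collagen, read 93.4 to 153 in control and 102 to 206 in mutant pools. Col2a1, the collagen of cartilage and notochord sheath, had signals in control 1, 2 and 3 of 149, 398 and 335 and in the mutant pools of 422, 305 and 391, so that control 1 lay below all other pools. In a limma fit without the filter, 0 of these 14 members passed (adjusted p of 0.387 or more), and 0 had an unadjusted p under 0.05. The smallest p was that of Col11a1, a fibrillar collagen (log2 difference 0.36, SE 0.19), whose mutant pools, at 170 to 223, lay above its control pools, at 139 to 166.

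The comparison of mutant with control pools asks which of these genes differ between the genotypes in the PSM pools. Of the 24 tested members, 0 were higher and 0 lower at an adjusted p under 0.05 (limma, Benjamini-Hochberg over all 7245 genes tested), where 1.70% of all genes were called. Unadjusted p lay under 0.05 for 4 of 24, Col9a1, Col13a1, Itgb8 and Itgb3bp, against 15.0% of all genes. The 3 mutant pools lay on 1 side of the 3 control pools for 6 of 24, against 21.2% of all genes. They were higher in 4 (9.73% of all genes) and lower in 2 (11.5%). Differences ran from −0.63 to 0.47 on the log2 scale, 15 positive and 9 negative, with a median of 0.12, where the median of all genes was −0.01. Without Col5a1, Itga3 and Itga8, which passed only through the mutant pools, 12 were positive and 9 negative, with a median of 0.08, and the 6 members without overlap were all among these 21. A p that misses the threshold does not show that the genotypes were alike, so intervals are given. For 23 of the 24, the 95% confidence interval of the log2 difference lay within −1 to 1, or less than 2-fold either way. The exception was Itga3, whose interval ended at 1.002, or 2.003-fold. Each interval holds for its own gene in this fit and was not adjusted for the number of members.

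**Figure D2:**
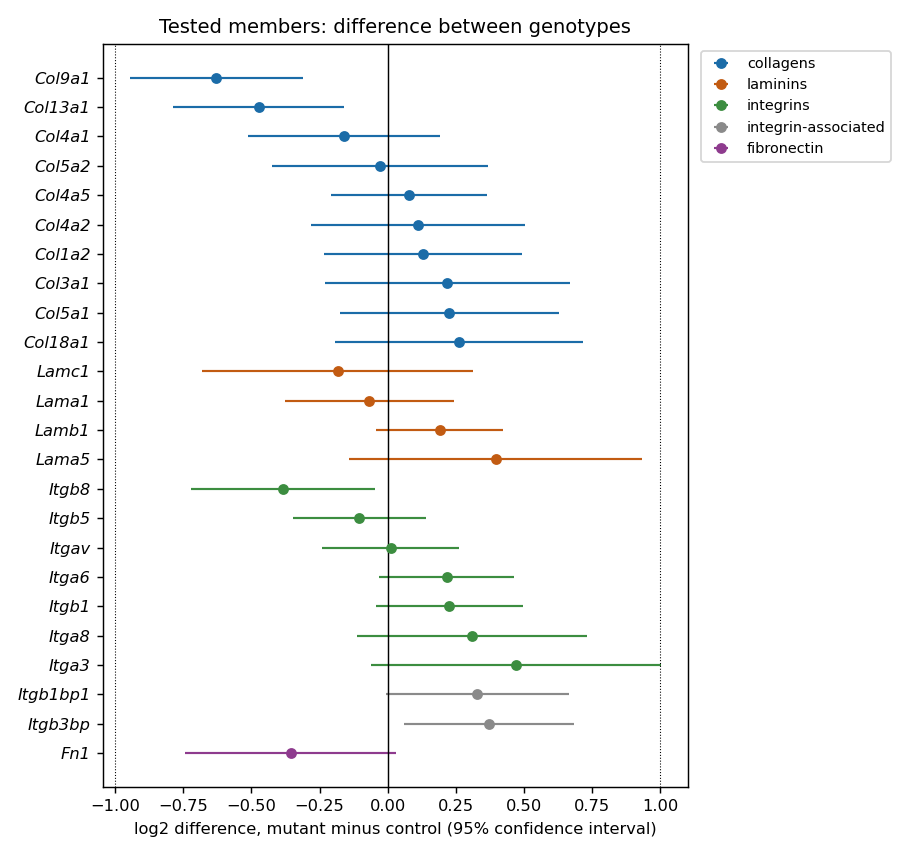
Log2 difference, mutant minus control, of the 24 tested members with 95% confidence intervals from limma (3 pools per genotype), by family; dotted lines mark −1 and 1. The points run from −0.63 for Col9a1 to 0.47 for Itga3, and 0 of them passed the test over all genes.

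Of the 10 tested collagens, 0 passed, 6 were positive and 4 negative, and the median log2 difference was 0.09. It was 0.08 over the 9 without Col5a1, 5 of them positive, and with 1 array left out it ran from −0.04 without mutant 1 and −0.01 without control 1 to 0.17 without control 3 or mutant 2. Col9a1 encodes a chain of type IX collagen, which coats cartilage fibrils. Its signals were 1776, 1347 and 1427 in control pools 1, 2 and 3, and 942, 888 and 1102 in mutant pools 1, 2 and 3. The mutant pools all lay below the control pools, with a mean of 977 ± 111 against 1517 ± 228 (SD). The fold, mutant over control, was 0.647 (95% confidence interval 0.519 to 0.806), and the log2 difference was −0.63 (SE 0.14, adjusted p = 0.0587). With the split into high- and low-ratio arrays as a block in the model, Col9a1 was lower at −0.64 (adjusted p = 0.00770), and within the sets it had −0.96 and −0.33. Without mutant 3 it was also called (−0.72, adjusted p = 0.0448), and over all alternatives its adjusted p ran from 0.00542 to 0.239. The other Col9a1 probe set lay below the filter and went the other way, from 121 to 167 in control pools to 188 to 194 in mutant pools (log2 difference 0.37, SE 0.19, unadjusted p = 0.0814).

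Col13a1, a collagen that spans the membrane, read 617, 541 and 603 in control pools and 376, 446 and 447 in mutant pools. The groups did not overlap, and the log2 difference was −0.47 (SE 0.14, adjusted p = 0.139), or 0.720-fold. It was −0.59 within the high-ratio and −0.35 within the low-ratio arrays.

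Type IV collagens had small differences of both signs. Col4a1 read 3010, 3478 and 3218 in control pools and 3244, 2197 and 3382 in mutant pools. Mutant 2 alone lay low, and the log2 difference was −0.16 (SE 0.16, adjusted p = 0.698) with mutant 2 and 0.04 without it. Col4a2 had 0.11 (SE 0.18), and its mutant pools, at 775 to 1145, overlapped the control pools, at 730 to 999. Col4a5 had 0.08 (SE 0.13), with 1615 to 2101 in control and 1843 to 2164 in mutant pools. The 95% intervals were 0.701 to 1.14-fold for Col4a1, 0.823 to 1.42-fold for Col4a2 and 0.864 to 1.29-fold for Col4a5.

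The fibrillar collagens Col1a2, Col3a1, Col5a1 and Col5a2 had log2 differences of 0.13, 0.22, 0.23 and −0.03, each with an SE of 0.16 to 0.20. Mutant 1 had the highest signal of the 6 pools in all 4. Col3a1, the chain of type III collagen, read 765, 1310 and 1140 in control pools and 1476, 1177 and 1035 in mutant pools. Within the high-ratio set the difference of Col3a1 was 0.78, and within the low-ratio set −0.24, and that of Col1a2, the second chain of type I collagen, 0.43 and −0.14. For Col5a2, a chain of type V collagen, which nucleates fibrils, it was 0.24 and −0.47. These 3 genes thus turned in direction between the sets. Col5a1 had 0.34 and 0.03.

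Col18a1 encodes a basement membrane collagen that carries endostatin at its end. It read 1380, 2275 and 2275 in control pools and 2412, 1867 and 2729 in mutant pools. Control 1 was lowest, the groups overlapped, and the log2 difference was 0.26 (SE 0.20, adjusted p = 0.605). Under the spike-in ratio block its value was 0.44 (adjusted p = 0.0383), with 0.62 and 0.26 within the sets, and without control 1 the plain difference was 0.02 (adjusted p = 0.958). Its adjusted p over all alternatives ran between these values. A second Col18a1 probe set, also above the filter, read 962 to 1324 in control and 1330 to 1716 in mutant pools, without overlap (0.42, SE 0.16, unadjusted p = 0.0236). This second probe set, with the suffix _s_at, may bind related transcripts.

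**Figure D3:**
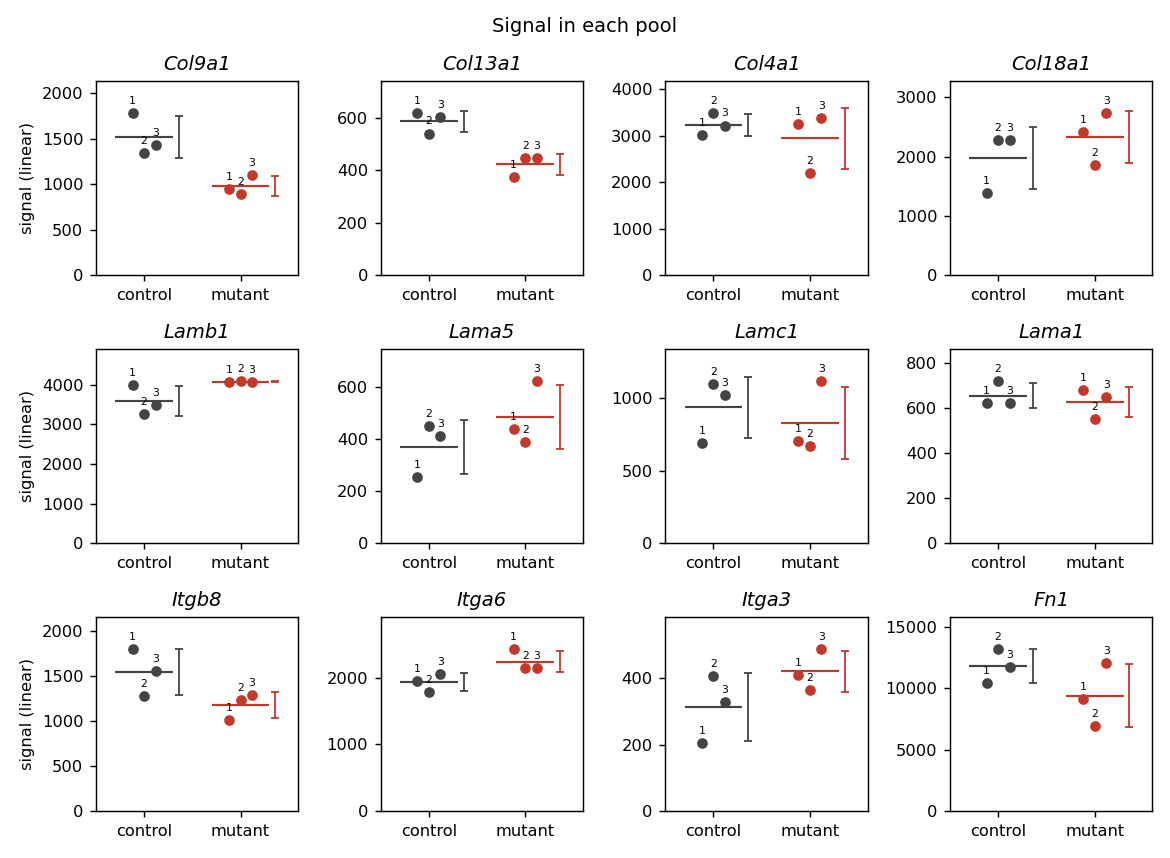
Linear signal of 12 members in each pool (points, numbered by pool), with the mean (line) and SD (bar) of the 3 control and 3 mutant pools. Col9a1 and Col13a1 show 3 mutant pools below 3 control pools, while Col18a1, Lama5 and Itga3 have their lowest value in control 1.

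Of the 4 tested laminin chains, 0 passed, 2 were positive and 2 negative, with a median of 0.06, and of −0.07 over 3 chains when probe sets that can cross-hybridise were left out. Lamb1, the beta chain of most early embryonic laminins, read 4001, 3264 and 3492 in control pools and 4065, 4088 and 4073 in mutant pools. The mutant pools lay close together just above control 1, and the log2 difference was 0.19 (SE 0.11, adjusted p = 0.438). Its other probe sets had 0.20 and 0.22. Lamc1, the gamma chain that nearly all early laminins share, read 694, 1094 and 1018 in control pools and 704, 669 and 1116 in mutant pools. The 3 high-ratio arrays, at 669 to 704, lay below the 3 low-ratio arrays, at 1018 to 1116. The log2 difference of Lamc1 between genotypes was −0.18 (SE 0.22, adjusted p = 0.756) and with the spike-in ratio block 0.03.

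Lama1, the alpha chain of laminin-111, read 625, 721 and 622 in control pools and 680, 552 and 649 in mutant pools. These overlapped, with a log2 difference of −0.07 (SE 0.14) and a 95% interval of 0.770 to 1.18-fold. Lama5, the alpha chain of laminin-511 and the member whose start-site window held TGACGT, read 252, 447 and 410 in control pools and 439, 387 and 621 in mutant pools. Its only probe set has the suffix _s_at, so it may bind related transcripts. Control 1 was lowest and mutant 3 highest, and the log2 difference was 0.40 (SE 0.24, adjusted p = 0.482). With the block it was 0.62 (adjusted p = 0.0157), with 0.71 and 0.53 within the high- and low-ratio arrays. Without control 1, the plain difference of Lama5 was 0.14 (adjusted p = 0.714), these being the lowest and highest adjusted p of its alternatives.

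Of the 7 tested integrin chains, 0 passed, 5 were positive and 2 negative, with a median of 0.22. Itga3 and Itga8 passed the filter only through the mutant pools, and without them 3 were positive and 2 negative, with a median of 0.011. Itgb8, which pairs with the alpha V chain and is known to release active TGF-beta, read 1798, 1280 and 1553 in control pools and 1014, 1236 and 1284 in mutant pools. The groups overlapped narrowly, through mutant 3 and control 2, and the log2 difference was −0.38 (SE 0.15, adjusted p = 0.261). Within the sets it was −0.68 and −0.14. Itga6, a laminin receptor chain, read 1950, 1795 and 2062 in control pools and 2437, 2152 and 2157 in mutant pools. The groups did not overlap, but the log2 difference was 0.22 (SE 0.11, adjusted p = 0.401). Its second probe set, also above the filter, read 491 to 571 in control and 632 to 803 in mutant pools (0.40, SE 0.15, unadjusted p = 0.0200).

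Itga3, a laminin receptor chain of epithelia, read 203, 407 and 329 in control pools and 408, 365 and 488 in mutant pools. Control 1 was lowest, and the log2 difference was 0.47 (SE 0.24, adjusted p = 0.395), the largest positive value among tested members. With the block it was 0.67 (adjusted p = 0.0217), with 0.92 and 0.41 within the sets, and without control 1 the plain difference was 0.19 (adjusted p of all alternatives from 0.0217 to 0.571). Itgb1, which pairs with Itga6, Itga3 and Itga8 products, had 0.23 (SE 0.12, adjusted p = 0.425), with 1133 to 1279 in control and 1268 to 1535 in mutant pools. Itga8 had 0.31 (SE 0.19), and its high-ratio arrays, at 391 to 464, lay above its low-ratio arrays, at 258 to 356.

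Itgav read 3113, 2496 and 2687 in control pools and 2654, 2817 and 2858 in mutant pools, with a log2 difference of 0.01 (SE 0.11) and a 95% interval of 0.847 to 1.199-fold. Itgb5 read 2277, 2366 and 2547 in control pools and 2056, 2219 and 2421 in mutant pools, with −0.10 (SE 0.11). The sign of Itgav turned with median centring and with the spike-in ratio block (both −0.02).

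Fn1 read 10437, 13197 and 11716 in control pools and 9144, 6946 and 12096 in mutant pools. The groups overlapped through mutant 3, and the log2 difference was −0.36 (SE 0.18, adjusted p = 0.375), or 0.781-fold with a 95% interval of 0.597 to 1.02. It was −0.16 without mutant 2 and −0.56 without mutant 3. All 3 high-ratio arrays lay below all 3 low-ratio arrays, and the difference between genotypes was −0.39 within the high-ratio set, −0.04 within the low-ratio set and −0.21 with the block (adjusted p = 0.320, and from 0.0480 to 0.788 over all alternatives). A second Fn1 probe set, below the filter, read 247 to 347 in control and 195 to 221 in mutant pools, without overlap (−0.55, SE 0.18, unadjusted p = 0.0129).

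The genes that the name pattern takes in beside integrin chains had positive differences. Itgb3bp, a centromere protein first found through its binding to the beta 3 chain, read 1046, 897 and 1065 in control pools and 1271, 1510 and 1129 in mutant pools. The groups did not overlap (0.37, SE 0.14, adjusted p = 0.242). Its other 2 probe sets, below the filter, had 0.07 and 0.05. Itgb1bp1, which binds the tail of the beta 1 chain and holds the integrin inactive, read 639, 820 and 891 in control pools and 929, 1075 and 925 in mutant pools, without overlap (0.33, SE 0.15, adjusted p = 0.346).

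Of the 18 members with more than 1 probe set, 13 had all of them on 1 side of 0. The 5 others were Col9a1, Col4a1, Col11a1, Col23a1 and Itgb5. Of the 8 members with more than 1 probe set above the filter, 6 had them on 1 side, and Col4a1 and Itgb5 did not. Itga9, an alpha chain that binds tenascin and other matrix proteins, had the largest difference of any member probe set (0.83, SE 0.23, unadjusted p = 0.00487), from 72.3 to 89.8 in control to 118 to 183 in mutant pools, far below the filter. The suffix of that probe set (_s_at) marks it as one that may bind related transcripts, and the other Itga9 probe set overlapped between groups (0.42, SE 0.33 in the fit of genes without the filter).

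**Figure D4:**
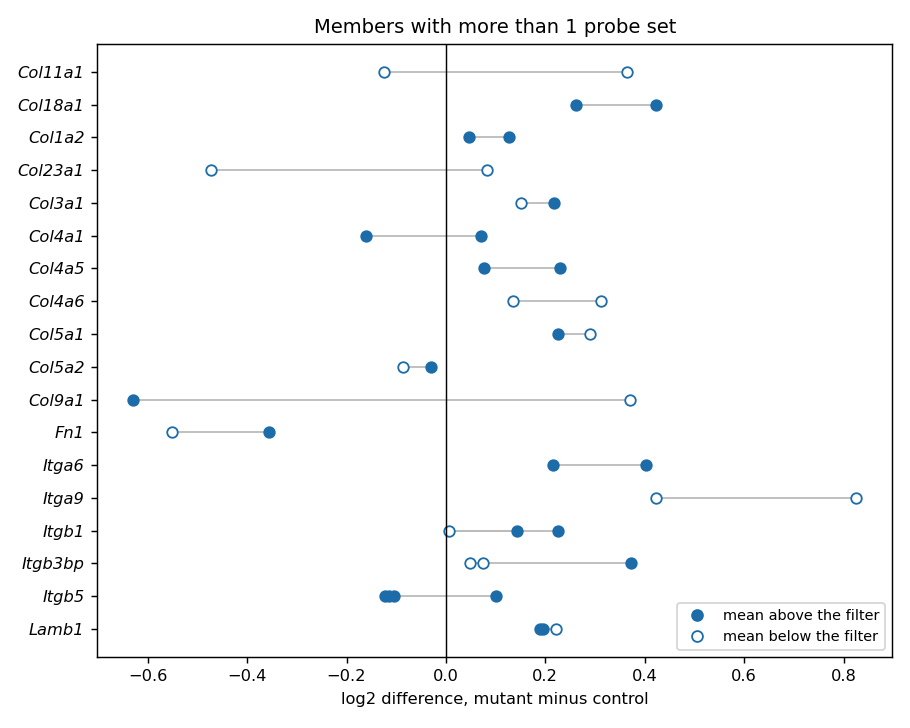
Log2 difference, mutant minus control, of each probe set of the 18 members with more than 1, joined by a line for each gene; filled points have a mean above the filter and open points below it. The 2 Col9a1 probe sets lie at −0.63 and 0.37, while both Itga6 and both Fn1 probe sets lie on 1 side of 0.

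The arrays differed within genotypes along the spike-in split. Of the 24 tested members, 4 had high- and low-ratio arrays that did not overlap, Fn1, Lamc1 and Itgb5 with the high-ratio arrays below and Itga8 with them above, against 28.0% of all genes. Control 1 gave the lowest of the 6 signals for 8 members, Col1a2, Col3a1, Col4a2, Col18a1, Lama5, Itga3, Itgb1 and Itgb1bp1. Over all genes it was lowest in 21.2%. With the block in the model, 4 of 24 members were called, Col18a1, Lama5 and Itga3 higher and Col9a1 lower, where 6.51% of all genes were, 2.79% higher and 3.73% lower. Itga3 was tested only through its mutant pools, and of the 21 members with a control mean above the filter 3 were called. The difference had the same sign in both sets for 17 of the 24 members, and the share over all genes was not computed. In these differences control 1 and mutant 3 each stand alone for their genotype. The family medians within the high- and low-ratio sets were 0.29 and −0.06 for collagens, 0.01 and 0.18 for laminins and 0.07 and 0.16 for integrins.

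**Figure D5:**
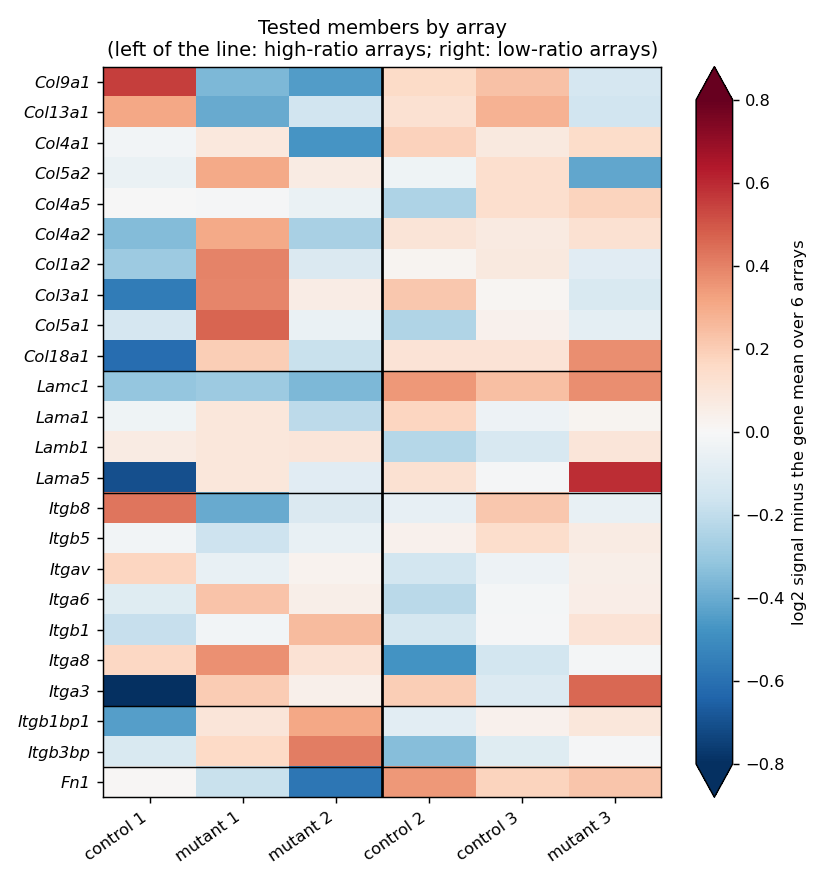
Log2 signal of the 24 tested members in each array, as the deviation from the gene's mean over 6 arrays (colour), with the high-ratio arrays left of the line and the low-ratio arrays right of it. Lamc1 is low in control 1, mutant 1 and mutant 2, and Itga3, Lama5 and Col18a1 are low in control 1.

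Markers of other cell types moved beside these genes. The sums given take in every listed gene with a probe set, also those below the filter. Some tested markers passed the filter of 349 through 1 genotype alone. With a mutant mean below it, Prrx1 (312), Sox17 (288), Esam (333) and Tal1 (338) passed only through the control pools. Apoa1 and Foxa2, with control means of 281 and 342, passed only through the mutant pools. Over all genes tested, 0.594% were called higher, 1.10% lower, and 47.6% were positive. Of 7 tested surface ectoderm markers 3 rose, and all 7 were positive. The summed signal of the list, 11 genes, was 15869 to 17958 in control and 23910 to 25579 in mutant pools. Of 6 tested endothelial markers 1 fell, Kdr, and the sum over 8 genes was 3705 to 4406 in control and 2874 to 3593 in mutant pools. Lateral mesoderm markers summed to 5861 to 6105 in control and 3271 to 4063 in mutant pools. Of the 5, 3 were lower, Hand2, Foxf1 and Prrx1, the last tested through its control pools alone. Bmp4 had 0.62 (limma adjusted p = 0.258) and Osr1 0.00. Yolk sac endoderm markers, in a list with Sparc and with the plasma protein genes Afp and Ttr, had 0 of 3 called (limma, 0 with an unadjusted p under 0.05). The sum over 5 genes was 21158 in mutant 1, against 2621 to 7083 in the other pools. Of 9 gut endoderm markers 8 were positive, Apoa1 and Foxa2 among them, with a median of 0.73. The other, Sox17, tested through its control pools alone, fell. The sum over 10 gut genes was 5954 to 12211 in control and 10009 to 30900 in mutant pools, highest in mutant 1. Afp and Ttr are in this list as in that of the yolk sac, and read 7246 and 11528 in mutant 1. Of 5 blood markers 4 were positive, with a median of 0.50, and 1, Car2, rose, while Tal1 had −0.74 (adjusted p = 0.141). The sum over 7 blood genes was 32059 to 44561 in control and 44586 to 62561 in mutant pools. Of 3 notochord markers Krt19 rose, a gene already counted for surface ectoderm, while Shh and Foxa2, the latter also a listed gut gene, were not called. Of 3 neural tube markers 0 passed, with 0 at an unadjusted p under 0.05. The part of these tissues in the values of the matrix and integrin genes was not tested.

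Of 66 other genes of matrix and adhesion in 5 lists, 0 passed in limma in either direction, where 0.594% of all genes were called higher and 1.10% lower. Of the 66, 13 had an unadjusted p under 0.05, against 15.0% of all genes. For collagen folding and crosslinking, 14 of 32 listed genes were tested, with a median of 0.06. Plod2, a lysyl hydroxylase that prepares collagen for crosslinking, had the largest value (0.88, SE 0.23, adjusted p = 0.0911), with control pools at 769, 832 and 1218 and mutant pools at 1219, 2256 and 1768, and was called with the spike-in ratio block (0.96, adjusted p = 0.00568, and up to 0.322 in other alternatives). Sec23a, a coat protein for collagen export from the endoplasmic reticulum, had 0.43 (SE 0.14, adjusted p = 0.167).

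Of 15 tested genes of other basement membrane proteins and laminin receptors, the median was −0.01. Fras1, a basement membrane protein of the ectoderm, had 0.47 (SE 0.15, adjusted p = 0.157), and Sgce, a sarcoglycan, 0.44 (SE 0.16, adjusted p = 0.231, 0.0476 with the block and up to 0.522 in other alternatives). Among 9 other matrix genes the median was 0.00, with −0.49 for Ltbp1, which tethers latent TGF-beta (SE 0.17, adjusted p = 0.201, 0.0371 without control 1, and from 0.00702 to 0.498 over all alternatives), and 0.40 for the hyaluronan receptor Cd44 (SE 0.15, adjusted p = 0.220). Inside the cell, 18 genes of the integrin adhesion complex had a median of 0.03, with 0.54 for Rsu1, a partner of the kinase-like protein Ilk and its complex (SE 0.19, adjusted p = 0.198), and −0.27 for the adaptor Crk (SE 0.11, adjusted p = 0.260). Of 10 matrix proteases and inhibitors the median was −0.08, with 0.48 for Timp2, an inhibitor of matrix metalloproteases (SE 0.14, adjusted p = 0.144), and 0.34 for the protease Adamts1 (SE 0.15, adjusted p = 0.314).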

How the data were processed

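Total RNA of 6 pools (PicoPure kit) was biotin-labelled by 3' IVT and read on Affymetrix arrays, per the labels' protocols. The authors deposited a linear intensity, or signal, for each probe set and array. Expression Console (Affymetrix) and MAS5 are named in the submitters' processing notes, with versions not given in the sources used here. Of 19606 probe sets, 55 were array controls. The others were named through the platform annotation, which gave 17348 of them 1 symbol, 494 several and 1709 none.

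The offset before log2 was 1, and probe sets with a mean log2 signal below the 40th percentile were left out (11731 left, 7245 genes). Groups were compared by limma 3.58.1 (R 4.3.3) with an intensity trend, two-sided, and a Benjamini-Hochberg adjusted p under 0.05 was a call. Per-array values were given for Fn1 and, by family, for the 3 members with the highest control signal and the 3 with the smallest p; other members and probe sets, and the counts without the members that passed through the mutant pools alone, were added after their values were seen. In each partner list the 2 genes with the smallest p were named. Members and lists were chosen with earlier results of these data known, the spike-in split and its block among them. The fit was tested on simulated data. The number of arrays limits the precision, and detection calls were not used here.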

Additional observations from a re-analysis of the deposited data

How the results depend on the processing

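The precision is set by 3 arrays per genotype, and 14 members lay below the filter and were not tested in the comparison. Replicate numbers were not used to pair the pools in the main fit. The residual correlation of equal numbers was 0.12, −0.45 and 0.35, which does not settle whether pools were paired, since unequal numbers were not compared. With the replicate block, 1 member was lower, Col9a1, and 1 partner gene higher, Plod2, where 176 of all 7245 genes (2.43%) were called. Array weights gave 4 lower members (Col9a1, Col13a1, Fn1 and Itgb8), 3 higher and 3 lower partner genes, an integrin median of 0.13, and a turned Col4a5 (−0.031), where 943 of all 7245 genes (13.0%) were called, against 123 without weights. The spike-in ratio block gave 3 higher members, 1 lower member and 4 higher partner genes, and turned Lamc1 (0.033) and Itgav (−0.023). Median centring turned Itgav (−0.020). Without the filter 1 partner gene was called, Pcolce, and with the filter at the 60th percentile the integrin median was 0.011, over 5 in place of 7 genes. With 1 array left out, lower members numbered 0 to 1 and lower partner genes 0 to 1, the integrin median ran from 0.043 to 0.26 over 5 to 7 genes, and 8 members turned sign: Itgav (−0.060 to 0.099), Lama1 (−0.13 to 0.021), Col4a5 (−0.028 to 0.16), Col4a1 (−0.27 to 0.036), Col1a2 (−0.040 to 0.22), Col3a1 (−0.0069 to 0.38), Col4a2 (−0.035 to 0.27) and Col5a2 (−0.19 to 0.17). The collagen median ran from −0.040 to 0.17, and all genes called from 20 to 228. Apart from the number of integrins tested, the cause was not tested. Quantile normalization, offsets of 16 and 64, no intensity trend, averaging of a gene's probe sets, and leaving out probe sets that can cross-hybridise gave 0 called members and 0 called partner genes.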
